A study of Mus musculus with 6 samples.

Results

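The genes of collagen modification and crosslinking described here were chosen by name, 10 in all: P4ha1, P4ha2 and P4hb (prolyl 4-hydroxylase), Plod1, Plod2 and Plod3 (lysyl hydroxylases), Serpinh1 (the collagen chaperone HSP47), and the lysyl oxidase genes Lox, Loxl1 and Loxl2. Of these, 9 are described, out of 25407 gene rows, and Lox was not analysed here. No symbol among the 9 stood on more than 1 row, so each gene is 1 row of the table. All 9 passed the filter on low counts, which kept 16212 rows.

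The libraries came from CT26.WT, an established mouse colon carcinoma line, with 3 libraries of control cells and 3 of treated cells. The treated cells had received the nanoplatform Cu2O@AuMn@HA along with NaHS, which releases hydrogen sulfide, and NIR, near-infrared light. No agent is named for the control cells, and the labels give no dose, exposure or harvest time. All 3 agents were applied together, so their separate contributions cannot be told apart.

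Collagen is hydroxylated inside the endoplasmic reticulum as its chains are made. Prolyl 4-hydroxylase is a tetramer of alpha subunits, which carry the active site, and beta subunits, which are the protein disulfide isomerase encoded by P4hb. Its product, 4-hydroxyproline, stabilises the collagen triple helix at body temperature. Lysyl hydroxylases modify lysines, and the enzyme encoded by Plod2 acts on the telopeptides that later form stable crosslinks. Both families need oxygen, 2-oxoglutarate, iron and ascorbate. P4ha1, P4ha2 and Plod2 are textbook targets of the hypoxia-inducible factor HIF-1. HSP47 binds the folded triple helix, and the copper-dependent lysyl oxidases crosslink collagen and elastin outside the cell.

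Control libraries held 71409968 to 81821380 estimated counts each, and treated ones held 62328377 to 70323604. The groups separated on the first principal component (57.1% of the variance). Control 2 stood apart from the other control libraries on the second component (−57.7, against 35.9 and 28.3), which carried 14.4%, and calls of the members that change without it are given with and without it. Among 5 tested carcinoma markers 3 were higher in treated libraries and 0 lower, against 23.0% and 23.5% of all tested rows. Krt18 went from 65.4 ± 5.94 to 163 ± 9.97 FPKM (edgeR log2 fold change 1.28 ± 0.10). Krt8 was at 0.67 ± 0.14 and Krt19 at 2.29 ± 0.33. Epcam and Cdh1 were listed at 0 in all control libraries and reached at most 0.06 FPKM in treated ones. The 7 fibroblast markers summed to 48.6 to 53.2 FPKM in control and 26.9 to 29.7 in treated libraries, and most of that sum is the collagen genes Col1a1 and Col3a1 themselves. Of the others, Dcn was higher at 2.24 ± 0.20, Pdgfrb lower at −0.27 ± 0.10 (called in 4 of 20 alternatives) and Pdgfra not called (edgeR adjusted p = 0.425), while Lum was listed at 0 in 5 of 6 libraries and Thy1 was at most 0.04 FPKM. The leukocyte markers summed to 27.4 to 28.3 FPKM in control and 55.0 to 64.6 in treated libraries, nearly all of it Cd68, which was higher at 1.10 ± 0.09, whereas Ptprc, the general leukocyte marker, was listed at 0 in 5 of 6 libraries. The 4 endothelial markers summed to at most 0.07 FPKM in any library. The part of these markers in the results was not tested. In bulk RNA, fewer cells of a type and less RNA per cell cannot be told apart.

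In treated cells 4 of the 9 genes rose and 2 fell. The 3 prolyl 4-hydroxylase genes of the set and Plod2 rose, by 1.75-fold to 3.11-fold. Serpinh1 and Plod3 fell, and Plod1, Loxl1 and Loxl2 did not pass the test. The test was edgeR's quasi-likelihood test with Benjamini-Hochberg adjustment over all 16212 rows and a threshold of 0.05. By the same test 46.6% of all rows were called, 23.0% higher and 23.5% lower, so a change by itself was common in this comparison. Upper-quartile scaling gave 4688 rows higher and 3028 lower, against 3735 and 3813, and moved the median log2 fold change of all rows from 0.06 to 0.18. It left P4ha1, P4ha2, P4hb, Plod2 and Serpinh1 called in the same direction, while Plod3 was no longer called (−0.16, adjusted p = 0.170). In FPKM, the groups did not overlap for the 6 called genes, 4 higher and 2 lower, as for 57.5% of all tested rows (30.4% higher, 27.1% lower). Levels are in FPKM, which corrects for transcript length and for library size, and fold changes are treated over control.

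**Figure D1:**
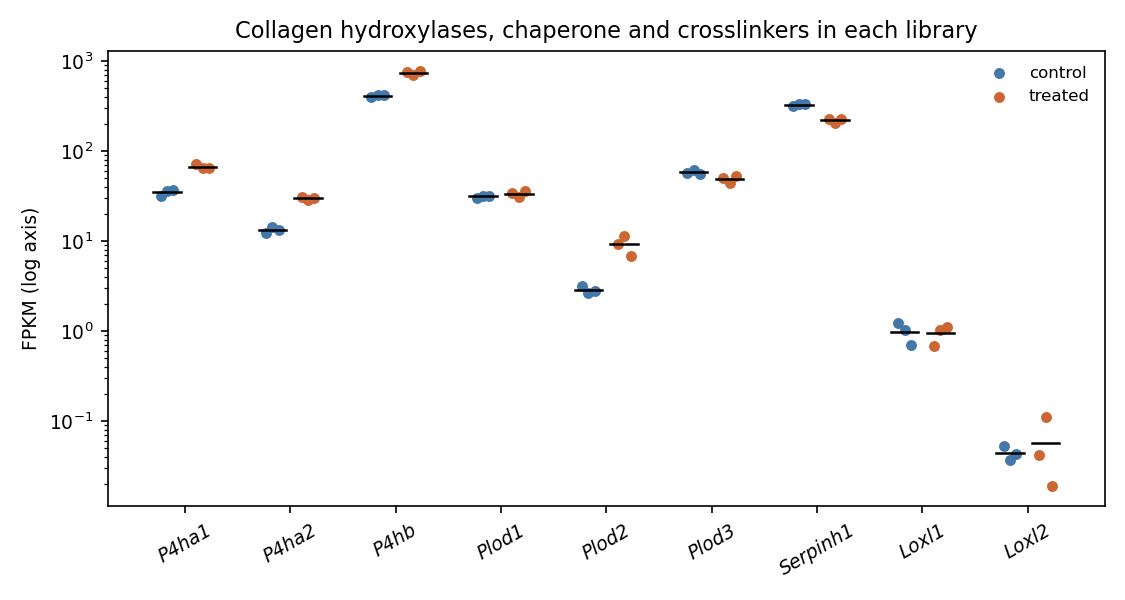
FPKM of each gene (log axis) in the 3 control and 3 treated libraries, 1 point per library, with a bar at each group mean. The treated points of P4ha1, P4ha2, P4hb and Plod2 lie above every control point and those of Serpinh1 and Plod3 lie below, while Plod1, Loxl1 and Loxl2 overlap.

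P4ha1 (ENSMUSG00000019916, chromosome 10, 59159118 to 59209126, plus strand; the build is not stated) encodes the more abundant catalytic alpha subunit. Its level was 32.1, 36.3 and 36.97 FPKM in control libraries 1 to 3 and 71.2, 65.8 and 64.3 FPKM in treated libraries 1 to 3. Every treated library was well above every control library. The mean was 35.1 ± 2.67 FPKM in control and 67.1 ± 3.67 FPKM in treated cells (SD, n = 3). The log2 fold change was 0.90 ± 0.09 (SE; adjusted p = 2.9e-05 by edgeR). Of all tested rows, 16.4% had a higher log2 fold change.

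P4ha2 (ENSMUSG00000018906, chromosome 11, 53990921 to 54022488, plus strand) encodes the second alpha subunit, which forms its own tetramers with the same beta subunit. It stood at 12.2, 14.4 and 13.4 FPKM in control and at 30.6, 28.9 and 30.4 FPKM in treated libraries, with no overlap and little spread within the treated group (coefficient of variation 3.09%). From a mean of 13.3 ± 1.11 FPKM it reached 29.98 ± 0.925, which is 1.13 ± 0.09 on the log2 scale (adjusted p = 1.08e-05 by edgeR). It is one of 2 members that changed by at least 2-fold, the other being Plod2. Among all tested rows 9.87% were called and at least 2-fold higher.

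P4hb (ENSMUSG00000025130, chromosome 11, 120451124 to 120464079, minus strand) encodes the beta subunit, which also serves as a general disulfide isomerase and as a subunit of the microsomal triglyceride transfer protein. With 403, 417 and 424 FPKM in control and 757, 707 and 768 FPKM in treated libraries, it was the most abundant of the 9 genes in both groups. The groups were far apart relative to their spread. Means were 415 ± 10.7 FPKM in control and 744 ± 32.3 in treated cells, 0.81 ± 0.07 apart on the log2 scale (adjusted p = 2.33e-05 by edgeR).

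The alpha subunits were also read as a sum. P4ha1, P4ha2 and P4ha3 together came to 48.5 ± 3.65 FPKM in control and 97.1 ± 4.13 in treated libraries. P4ha3, the third alpha subunit gene, contributed at most 0.05% of that sum in any library. P4ha2 made up 26.6% to 28.4% of the sum in control and 30.1% to 32.1% in treated libraries. The log2 ratio of P4ha1 to P4ha2 was 1.40 ± 0.07 in control and 1.16 ± 0.07 in treated libraries, without overlap (exact 2-sided permutation test, p = 0.1, and 0.1 after adjustment over 2 ratios). With 3 libraries against 3 that is the smallest p the test can give. These shares and ratios are in FPKM without correction for the GC content of transcripts. With that correction the log2 fold changes of P4ha1 and P4ha2 lay further apart, at 0.79 and 1.28. Without it they were 0.90 and 1.13. P4hb FPKM exceeded the alpha subunit sum in every library, 8.58 ± 0.468-fold in control and 7.67 ± 0.381-fold in treated ones. These are RNA levels, and the amounts of the subunit proteins were not measured here.

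The stretches before the transcription starts of these genes were compared for the core of the hypoxia response element, the sequence that HIF binds. RefSeq promoters (GRCm38.p6) were matched for 6 of the 9 genes, and not for Plod2, Loxl1 and Loxl2. The 250 bases before the start were searched on both strands for ACGTG and GCGTG, which read CACGT and CACGC on the other strand, and for the heat shock element pairs GAANNTTC and TTCNNGAA. The sequences of the 3 prolyl 4-hydroxylase genes, which rose, are shown beside those of the 2 genes that fell, each 5′ to 3′ in the direction of the gene, with matches in capitals. They lie at chr10:59323046-59323295 (plus strand), chr11:54100674-54100923 (plus), chr11:120573254-120573503 (minus), chr5:136986769-136987018 (plus) and chr7:99353240-99353489 (minus).
P4ha1: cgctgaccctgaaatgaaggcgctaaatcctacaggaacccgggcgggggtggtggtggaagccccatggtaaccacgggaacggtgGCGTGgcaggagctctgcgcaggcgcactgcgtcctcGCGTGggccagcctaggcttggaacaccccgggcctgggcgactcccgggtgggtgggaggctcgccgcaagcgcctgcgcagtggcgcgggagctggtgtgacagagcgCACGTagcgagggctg
P4ha2: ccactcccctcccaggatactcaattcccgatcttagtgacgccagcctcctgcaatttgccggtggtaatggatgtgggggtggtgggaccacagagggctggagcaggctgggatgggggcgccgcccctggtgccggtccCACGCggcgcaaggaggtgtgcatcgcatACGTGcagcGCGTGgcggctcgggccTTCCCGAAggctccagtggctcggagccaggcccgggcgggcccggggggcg
P4hb: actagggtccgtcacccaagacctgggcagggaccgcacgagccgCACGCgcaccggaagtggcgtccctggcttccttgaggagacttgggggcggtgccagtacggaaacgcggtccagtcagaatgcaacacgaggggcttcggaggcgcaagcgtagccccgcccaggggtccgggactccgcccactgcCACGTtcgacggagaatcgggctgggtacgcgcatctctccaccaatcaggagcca
Plod3: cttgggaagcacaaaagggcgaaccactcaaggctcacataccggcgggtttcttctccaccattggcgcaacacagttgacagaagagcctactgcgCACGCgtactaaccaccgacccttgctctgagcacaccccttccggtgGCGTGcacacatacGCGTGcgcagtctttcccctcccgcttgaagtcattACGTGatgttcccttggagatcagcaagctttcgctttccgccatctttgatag
Serpinh1: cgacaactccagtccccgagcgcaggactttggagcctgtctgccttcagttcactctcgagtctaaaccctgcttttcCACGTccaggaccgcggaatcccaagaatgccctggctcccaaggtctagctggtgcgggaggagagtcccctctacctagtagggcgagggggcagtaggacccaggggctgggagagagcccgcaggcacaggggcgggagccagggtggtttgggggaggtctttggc
All 6 matched genes held at least 1 of the 2 hypoxia cores, as did 38.6% of 32851 promoters of that length. The 6 stretches held 55.6% to 70% G and C. The 32851 promoters were not matched to them for GC content, so the 2 shares cannot be compared directly. P4ha1 held 3 matches, one of them the ACGTG core on the minus strand at bases −16 to −12 counted from the transcription start. P4ha2 held 3, including ACGTG at −78 to −74 and GCGTG at −69 to −65 on the plus strand. P4hb held 2, and Plod1, which is not printed, held 1. The 2 genes that fell were not without them: Plod3 held 4 matches, more than any of the 3 genes printed that rose, and Serpinh1 held 1. The only heat shock pair was TTCCCGAA in P4ha2, at −52 to −45, and 12.8% of all promoters held one. A match of these letters is a description of the sequence and shows no binding.

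Plod2 (ENSMUSG00000032374, chromosome 9, 92424276 to 92490481, plus strand), the telopeptide lysyl hydroxylase, had the highest log2 fold change of the 9 genes before GC correction. Its level was 3.16, 2.66 and 2.80 FPKM in control and 9.22, 11.5 and 6.88 FPKM in treated libraries. The lowest treated library was more than double the highest control library, although the treated libraries themselves differed, with treated 2 highest and treated 3 lowest (coefficient of variation 25.2%). Group means were 2.87 ± 0.262 and 9.21 ± 2.32 FPKM. The log2 fold change was 1.64 ± 0.16 (adjusted p = 2.9e-05 by edgeR), and 5.74% of tested rows had a higher one. Across 15760 tested rows, which are not independent replicates, log2 fold changes were lower at higher GC content of the transcripts (Spearman −0.27). The transcripts of Plod2 hold 42.6% G and C, against a median of 50.5% over tested rows. After correction for GC content its log2 fold change was 1.12 (adjusted p = 6.44e-06), below that of P4ha2 at 1.28.

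Plod1 (ENSMUSG00000019055, chromosome 4, 147994210 to 148021224, minus strand), which hydroxylates lysines of the helical part, stood at 30.4, 31.8 and 32.2 FPKM in control and at 34.4, 30.7 and 35.8 FPKM in treated libraries. The groups overlapped, and the log2 fold change of 0.06 ± 0.09 did not pass (edgeR adjusted p = 0.606, from 0.0116 to 0.976 over 20 alternatives). It passed only with the GC correction, without or with the replicate number as a block, at 0.21 both times.

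Plod3 (ENSMUSG00000004846, chromosome 5, 137015873 to 137025502, plus strand) encodes an enzyme that also transfers galactose and glucose to hydroxylysine. It stood at 57.3, 61.4 and 56.1 FPKM in control and at 49.9, 44.4 and 52.6 FPKM in treated libraries. Every treated library was below every control library, by a small margin. Group means were 58.3 ± 2.76 and 48.98 ± 4.16 FPKM, and the log2 fold change was −0.29 ± 0.10 (adjusted p = 0.0322 by edgeR). The call was lost without control 2 (−0.24, adjusted p = 0.0913), without treated 1 (−0.30, 0.0885) or without treated 2 (−0.23, 0.0692), and it held in 12 of 20 alternatives. Plod3 also shares 1003 bases with Znhit1 on the opposite strand, which averaged 35.2 FPKM, and the sources used here do not say whether strand was used in counting.

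The 3 lysyl hydroxylase genes together did not separate the groups, at 92.6 ± 2.83 FPKM in control and 91.8 ± 4.56 in treated libraries, with overlapping values. What shifted was the makeup, in FPKM without correction for GC content. Plod2 made up 2.77% to 3.48% of the sum in control and 7.22% to 13.3% in treated libraries, and Plod3 61.6% to 64.03% and 51.3% to 55.2%. The log2 ratio of Plod2 to Plod1 was −3.46 ± 0.17 in control and −1.90 ± 0.48 in treated libraries (exact 2-sided permutation test, p = 0.1, and 0.1 after adjustment over 2 ratios). With the GC correction the log2 fold changes of Plod2 and Plod1 lay closer together, at 1.12 and 0.21, against 1.64 and 0.06 without it.

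**Figure D2:**
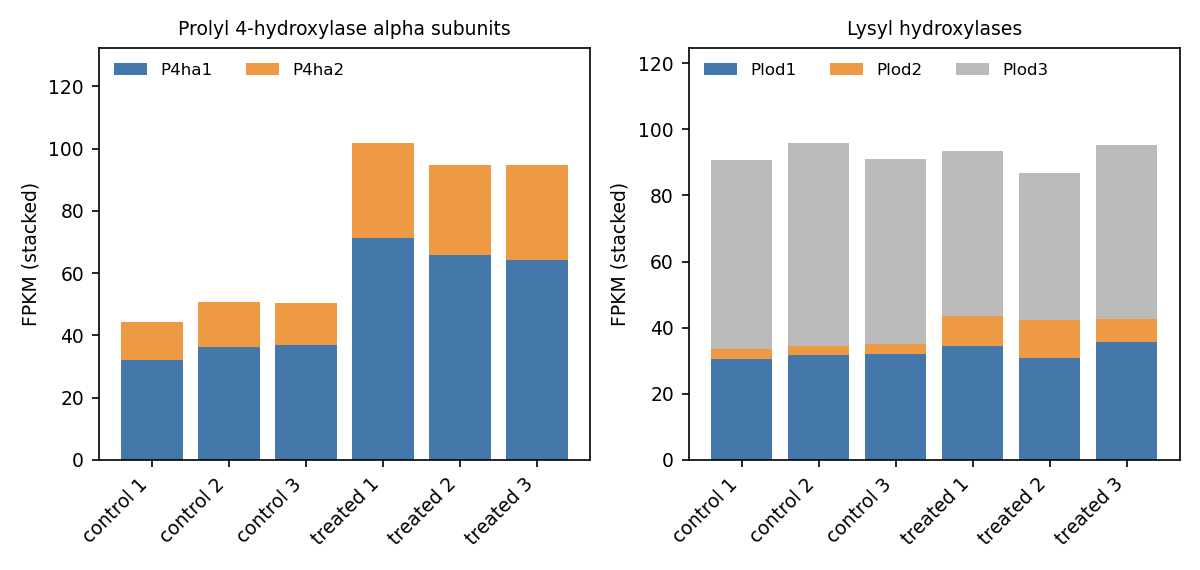
Stacked FPKM in each library of the alpha subunit genes P4ha1 and P4ha2 (left) and of Plod1, Plod2 and Plod3 (right). The alpha subunit bars of treated libraries reach 94.7 to 101.9 FPKM against 44.2 to 50.7 in control, while the lysyl hydroxylase bars overlap in height and differ in the Plod2 segment.

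Serpinh1 (ENSMUSG00000070436, chromosome 7, 98994583 to 99002446, minus strand), whose product is needed for correct folding of procollagen, moved against the prolyl 4-hydroxylase genes. It stood at 318, 333 and 333 FPKM in control and at 228, 206 and 230.4 FPKM in treated libraries. The groups were apart, with treated 2 lowest. The mean was 328 ± 8.57 FPKM in control and 222 ± 13.2 in treated cells. The log2 fold change was −0.60 ± 0.08 (adjusted p = 0.000251 by edgeR), and 16.7% of tested rows had a lower one. The ratio of Serpinh1 to P4hb FPKM was 0.791 ± 0.00665 in control and 0.298 ± 0.00499 in treated libraries, and these ratios varied less within each group than either gene alone.

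The lysyl oxidase-like genes were low. Loxl1, which acts mainly on elastin, stood at 1.23, 1.03 and 0.711 FPKM in control and at 0.693, 1.03 and 1.12 FPKM in treated libraries, and these values overlapped fully (log2 fold change −0.10 ± 0.26, edgeR adjusted p = 0.789). Loxl2, which acts on collagen IV and collagen I, stood at 0.0537, 0.0371 and 0.0432 FPKM in control and at 0.0424, 0.113 and 0.0193 FPKM in treated libraries. That is 8 to 47 estimated counts, of which about 4 seem to stand for 1 fragment, so these values rest on few fragments, and the log2 fold change of 0.32 ± 0.68 did not pass (adjusted p = 0.734). Its direction rested on treated 2, without which the log2 fold change was −0.59. The family members outside the set were higher: Loxl4 fell from 23.1 ± 0.724 to 18.1 ± 1.13 FPKM (−0.39 ± 0.07, edgeR adjusted p = 0.00127), and Loxl3, named after its value was seen, was at 15.2 ± 1.35 and 15.3 ± 0.826 FPKM (adjusted p = 0.827). Loxl1 and Loxl2 together thus made up at most 3.44% of the Loxl1 to Loxl4 sum in any library.

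**Figure D3:**
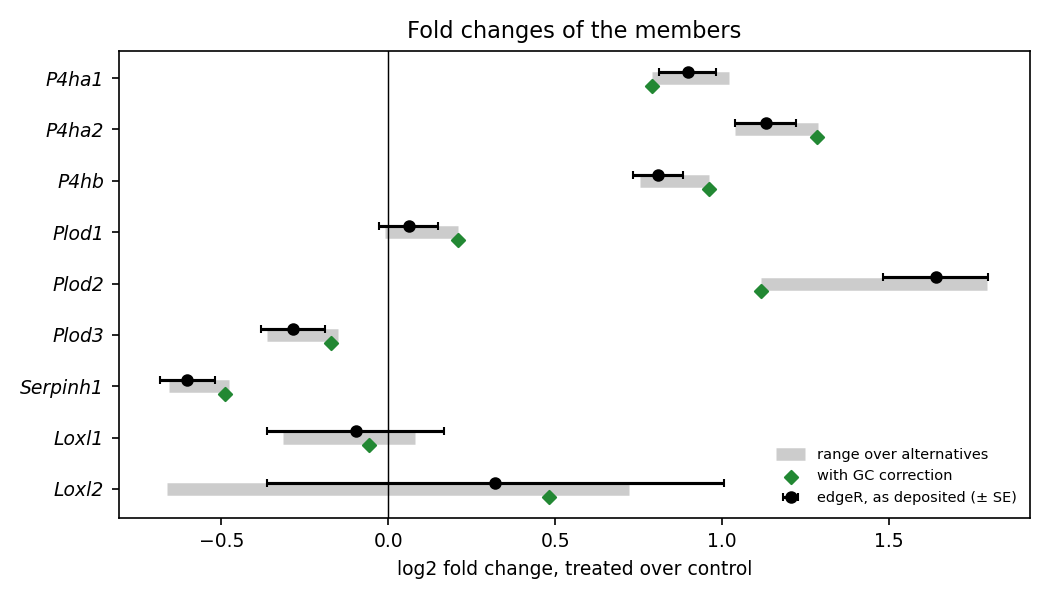
Log2 fold change (treated over control) of each gene from edgeR with its SE, the value after GC correction, and the range over all alternatives run. The ranges of P4ha1, P4ha2, P4hb and Plod2 lie above 0 and those of Serpinh1 and Plod3 below it, while those of Plod1, Loxl1 and Loxl2 include 0.

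Ordered by mean FPKM, control libraries ran P4hb, Serpinh1, Plod3, P4ha1, Plod1, P4ha2, Plod2, Loxl1 and Loxl2, and only P4ha1 and Plod1 overlapped as neighbours. In treated libraries P4ha1 stood above Plod3 and the rest of the order was the same, with no overlap between neighbours. Among tested rows the mean of Plod2 went from the 53.6th to the 72.6th percentile of FPKM and that of P4ha2 from the 77.5th to the 88.8th. The deposited annotation gives 5 members, P4ha1, P4ha2 and the 3 Plod genes, the term L-ascorbic acid binding. Of the 15 tested rows with that term, 6 were higher and 4 lower. The 5 members are counted in them, P4ha1, P4ha2 and Plod2 as higher and Plod3 as lower. The term endoplasmic reticulum lumen was given to P4ha1, P4ha2, P4hb, Plod3 and Serpinh1, and of 88 tested rows with it 15 were higher and 35 lower. These counts too include the members. Over all tested rows 23.0% were higher and 23.5% lower.

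Disulfide formation in the endoplasmic reticulum gives the setting for P4hb. Of 12 other isomerases and oxidases tested, 3 were higher and 7 lower, against 23.0% and 23.5% of all tested rows. Their median log2 fold change was −0.28, against 0.06 over all tested rows. Pdia6 fell from 115 ± 3.31 to 78.2 ± 4.32 FPKM (−0.59 ± 0.07, edgeR adjusted p = 9.95e-05), Txndc5 by 0.66 ± 0.08 and Creld2 by 0.57 ± 0.08 on the log2 scale. Ero1a, the oxidase that recharges the enzyme made from P4hb and a known hypoxia target, rose from 28.6 ± 2.05 to 84.2 ± 13.1 FPKM (1.52 ± 0.11, adjusted p = 5.19e-06). Its transcripts hold 42.9% G and C, and with the GC correction its log2 fold change was 1.04. Ero1a showed the same order within the treated group as Plod2, with 84.6, 97.1 and 70.96 FPKM in treated 1 to 3. That order was not particular to this pair, as Bnip3, Sec23a and Tmx1 showed it too. Tmx1, a membrane-bound isomerase, stood at 4.39 ± 1.02 and 4.95 ± 1.42 FPKM (edgeR adjusted p = 0.633). With the GC correction it passed as lower, at −0.56 without and with the block (edgeR adjusted p = 0.0017 and 0.0096). The direction of P4hb was shared by Pdia3, a close relative, at 0.31 ± 0.08 (adjusted p = 0.0139, called in 15 of 20 alternatives), and by Tmx3 at 2.13 ± 0.31, both named after their values were seen. Tmx3 stood at 0.427 ± 0.174 FPKM in control and 1.91 ± 0.578 in treated cells, and its log2 fold change was 1.11 with the GC correction.

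The hydroxylases were set beside 12 hypoxia-linked genes, of which 11 were higher and 0 lower, with a median log2 fold change of 1.24. Over all tested rows 23.0% were higher and 23.5% lower, at a median of 0.06. The 12 genes were chosen with earlier results of these data known. The deposited term response to hypoxia was given to 140 tested rows, Plod1, Plod2 and Loxl2 among them, of which 43 were higher and 41 lower. Among the 12 chosen genes Bnip3 was at 3.12 ± 0.11, Car9 at 1.67 ± 0.10, Higd1a at 1.46 ± 0.08 and Mxi1 at 0.98 ± 0.06. Before GC correction Plod2 lay close to Car9, and P4ha1 and P4ha2 close to Mxi1. With it Plod2 was at 1.12 and Car9 at 1.82, so these were no longer close. P4ha1 was then at 0.79, P4ha2 at 1.28 and Mxi1 at 1.06. Adm was low, at 0.264 ± 0.162 FPKM in control and 0.231 ± 0.0522 in treated cells, and was not called (edgeR adjusted p = 0.737).

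Other enzymes and chaperones of collagen modification were tested as a list of 12, of which 2 were higher and 3 lower, at a median of −0.07. These counts are near the shares over all tested rows, 23.0% higher and 23.5% lower, at a median of 0.06. Fkbp10, a prolyl isomerase that works with HSP47 and lysyl hydroxylase 2, fell from 48.7 ± 2.30 to 33.03 ± 2.15 FPKM (−0.60 ± 0.09, edgeR adjusted p = 0.000405), close to the value of Serpinh1. Colgalt1, which adds galactose to hydroxylysine, fell from 35.5 ± 1.21 to 27.2 ± 1.47 FPKM (−0.42 ± 0.08, adjusted p = 0.00192). Its paralogue Colgalt2 was listed at 0 in all control libraries and at 0.124, 0.157 and 0.195 FPKM in treated ones. With control libraries set at an assumed floor of 3 fragments, or 12 estimated counts, the treated mean of Colgalt2 was 4.70-fold that floor. Treated libraries held 36 to 63 estimated counts, so this value rests on few fragments. The median of the list stayed at −0.07 with this value in place. Ppib, the cyclophilin of the prolyl 3-hydroxylase complex, was measured at 99.6 ± 3.35 FPKM in control and 115 ± 6.06 in treated cells, which did not pass (edgeR adjusted p = 0.129, from 0.0117 to 0.399 over the alternatives).

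**Figure D4:**
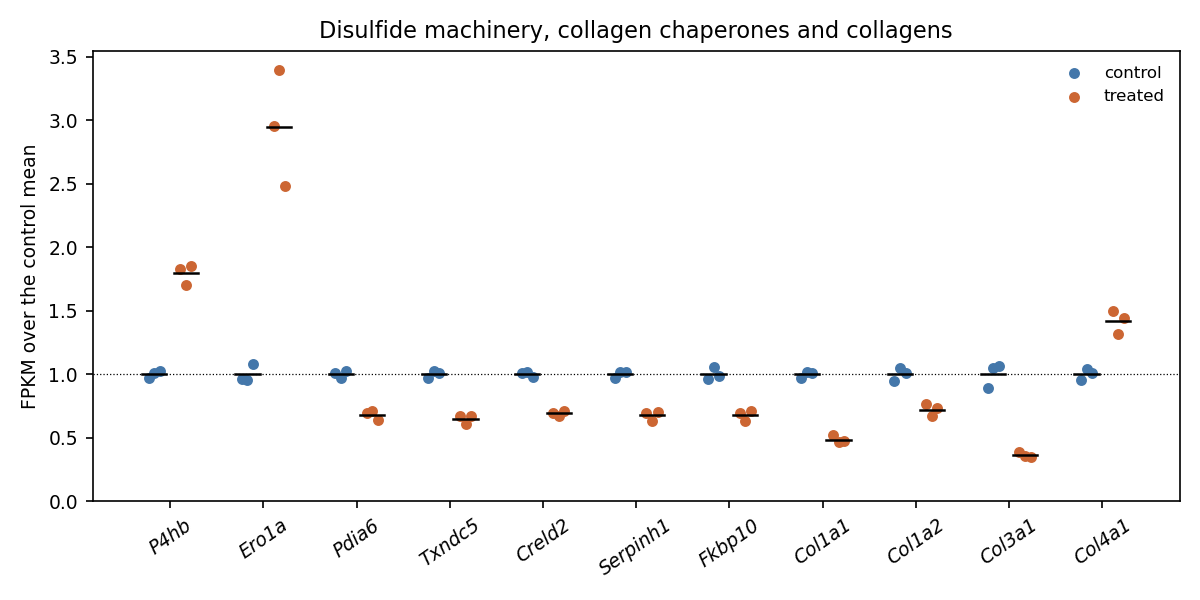
FPKM of each library divided by the control mean of the gene, for P4hb and other genes of disulfide formation, the collagen chaperones Serpinh1 and Fkbp10, and 4 collagen chains, with a bar at each group mean. P4hb, Ero1a and Col4a1 lie above 1 in all treated libraries and the other genes shown lie below 1.

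The collagen chains on which these enzymes act moved in both directions. Of 18 tested, 4 were higher and 4 lower, at a median of −0.07, shares near the 23.0% and 23.5% over all tested rows. Col1a1 fell from 31.1 ± 0.772 to 15.1 ± 0.938 FPKM (−1.08 ± 0.08, edgeR adjusted p = 4.95e-06), Col3a1 from 11.4 ± 1.06 to 4.13 ± 0.260 FPKM (−1.50 ± 0.09) and Col1a2 from 64.6 ± 3.53 to 46.6 ± 3.16 FPKM (−0.51 ± 0.09). These are chains of the fibrillar collagens I and III. Col4a1, a chain of basement membrane collagen, rose from 42.7 ± 1.97 to 60.6 ± 3.91 FPKM (0.47 ± 0.09, adjusted p = 0.00155), and Col16a1 stood at 27.8 ± 1.82 and 30.4 ± 2.57 FPKM (adjusted p = 0.469). The prolyl 4-hydroxylase genes and Plod2 were thus higher in libraries in which Col1a1, Col1a2, Col3a1, Serpinh1 and Fkbp10 were lower. In the same libraries 4 of the 18 chains, Col4a1 among them, were higher.

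Of 8 tested genes of procollagen export and processing, 1 was higher and 4 lower, against 23.0% and 23.5% of all tested rows. Their median was −0.21, against 0.06 over all tested rows. Pcolce, which enhances removal of the C-propeptide, fell from 150.3 ± 3.66 to 106 ± 2.69 FPKM (−0.54 ± 0.08, edgeR adjusted p = 0.000317), Adamts14 by 0.68 ± 0.11 and Sec24d by 0.37 ± 0.08 on the log2 scale. Sec23a, a COPII coat gene, was higher at 0.33 ± 0.12 (adjusted p = 0.0445), a call lost with the GC correction (−0.014, adjusted p = 0.916) and when any library except treated 3 was left out. Mia3, which loads procollagen for export, averaged 3.97 ± 0.298 FPKM in control and 3.59 ± 0.787 in treated cells (adjusted p = 0.322), which passed only with the GC correction, without and with the block, at −0.41 and −0.42. Of 7 tested matrix proteins that bind lysyl oxidases or their substrates, 2 were higher and 3 lower, at a median of −0.19. The shares over all tested rows were again 23.0% and 23.5%. Fibronectin, Fn1, rose from 121 ± 11.4 to 242 ± 12.9 FPKM (0.96 ± 0.09, adjusted p = 2.78e-05), and Thbs1 by 0.45 ± 0.09. Fbln5 fell by 1.01 ± 0.10 and Fbn1 by 1.59 ± 0.24, and Efemp2 stood at 36.7 ± 0.608 and 33.1 ± 1.25 FPKM (adjusted p = 0.0660).

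**Figure D5:**
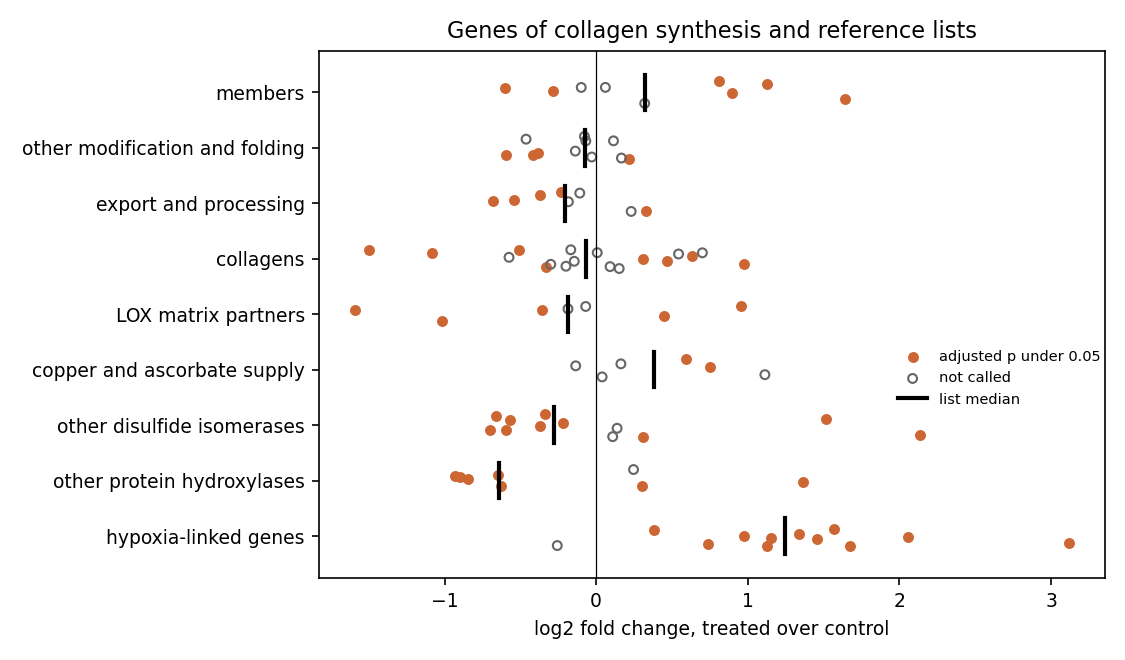
Log2 fold change (treated over control) of every tested gene in each list, 1 point per gene, filled where the adjusted p was under 0.05, with a bar at the list median; Colgalt2, at 0 in all control libraries, is not drawn. The hypoxia-linked list has its median at 1.24 and the other disulfide isomerases at −0.28, with members of the hydroxylase set on both sides of 0.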

How the data were processed

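RNA was measured in 6 libraries of the line CT26.WT, grouped as control or treated by sample title. Per the labels' protocols, mRNA was selected with oligo-dT and second strands were marked with dUTP. The authors deposited FPKM and estimated counts per gene, the latter as whole numbers, per the file headers. The value 4 was found 4054 times and its neighbours 2539.5 times on average, so a fragment seems to weigh about 4 counts. DESeq2, edgeR, StringTie 2.1.6, HISAT2 2.2.1 and cutadapt 1.9 are named, with no roles, in the submitters' processing notes. The genome build is not given in the sources used here, and gene starts and ends equalled those of GENCODE M21 (GRCm38) for 1.84% of shared identifiers, so promoter coordinates are on another scale. The labels do not say whether each library is its own culture. The p-values therefore cover the spread between these libraries only, and that may be technical.

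The test was edgeR 4.0.16 (R 4.3.3) with its default count filter, TMM scaling and no covariate. SE is the absolute log2 fold change over the square root of F. Alternatives were DESeq2 1.42.0, other scalings and filters, limma 3.58.1 on log2(FPKM + 1) or log2(FPKM + 0.1), GC correction (loess on GENCODE M21 transcripts, span 0.4), a replicate block, counts divided by 4, and each library left out. Leaving out both libraries numbered 2 and keeping protein-coding genes only were chosen after seeing the data. Members and lists were chosen with earlier results of these data known. Named genes are all members and, per list, up to 4 called genes with the smallest p and the most abundant gene not called; marker genes are named as checks, Loxl3 and P4ha3 to complete their families, and Pdia3 and Tmx3 after their values were seen. The ratio of Lox to Loxl2, also planned, is not reported.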

Additional observations from a re-analysis of the deposited data

How the results depend on the processing

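P4ha1, P4ha2, P4hb, Plod2 and Serpinh1 kept their direction and call in all 20 alternatives, at adjusted p values up to 0.00184, 0.000217, 0.000696, 0.000505 and 0.00280. The count of members lower went from 2 to 1, by the loss of Plod3, with upper-quartile scaling, over every row above 0, with the replicate block, with the GC correction and block together, and without both libraries numbered 2. With 1 library left out it was 1 to 2, and the count of members higher stayed at 4; it was 5 with the GC correction, by the gain of Plod1. With limma at a mean FPKM of at least 5, which tests fewer rows, 1835 rows were higher and 2528 lower. No pairing by replicate number was visible: deviations of same-numbered libraries correlated at 0.04, −0.10 and 0.0065, and those of differently numbered ones at −0.09 to 0.08. These values cannot establish that the samples were unpaired. With the block 3070 rows were higher and 3205 lower. With the GC correction the counts higher and lower went from 2 and 3 to 4 and 4 for other collagen modification, from 1 and 4 to 0 and 5 for export and processing, and from 2 and 0 to 2 and 2 for copper and ascorbate supply. Without control 2 they were 1 and 3 for other modification, 0 and 3 for export, 2 and 5 (from 3 and 7) for disulfide isomerases, and 5 and 4 (from 4 and 4) for collagen chains. Sec23a was at −0.014 and −0.0079 with the GC correction without and with the block. Of 916 recomputed fold changes of 47 named genes, 878 kept their call, 16 lost it, 20 gained one and 2 reversed. The cause of these shifts was not tested. Loxl2 had the fewest counts of the members, 8 to 47 estimated counts per library.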

Other observations

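Other oxygen-dependent protein hydroxylases moved mostly down. Of 8 tested, 2 were higher and 5 lower, at a median log2 fold change of −0.64. Over all tested rows 23.0% were higher and 23.5% lower, at a median of 0.06. Egln1, the main HIF prolyl hydroxylase, rose from 24.7 ± 0.312 to 65.3 ± 4.67 FPKM (1.37 ± 0.08, edgeR adjusted p = 2.03e-06). Egln2 fell from 42.3 ± 0.199 to 24.1 ± 2.29 FPKM (−0.84 ± 0.09, edgeR adjusted p = 4.86e-05). Hif1an, the HIF asparaginyl hydroxylase, was at −0.65 ± 0.08 and the ribosomal histidine hydroxylase Riox2 at −0.93 ± 0.13, both called lower. Asph, which hydroxylates EGF-like domains, stood at 1.89 ± 0.139 and 2.30 ± 0.457 FPKM (edgeR adjusted p = 0.139, from 0.0143 to 0.781 over the alternatives).

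Among 6 tested genes of copper and ascorbate supply, 2 were higher and 0 lower, against 23.0% and 23.5% of all tested rows. Their median was 0.38, against 0.06 over all tested rows. Atox1, which carries copper to the pump that loads lysyl oxidases, rose from 56.5 ± 3.46 to 87.6 ± 9.10 FPKM (0.60 ± 0.10, edgeR adjusted p = 0.00109). Slc31a2 rose from 2.27 ± 0.187 to 3.95 ± 0.654 FPKM (0.75 ± 0.17, edgeR adjusted p = 0.00533). The copper importer gene Slc31a1 stood at 5.53 ± 0.458 and 5.82 ± 0.335 FPKM (edgeR adjusted p = 0.769), and passed with the GC correction in the other direction, at −0.29 (0.0382).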
